A study of Mus musculus with 16 samples.

Results

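The genes described here sit upstream of mTORC1, the protein kinase complex that drives protein synthesis when growth factors, energy and amino acids are in supply. They are 7 brakes (Ddit4, Ddit4l, Tsc1, Tbc1d7, Sesn1, Sesn2 and Sesn3) and 3 GTPases (Rheb, Rhebl1 and Rragd). A probe set, the array's group of short probes for 1 transcript region, was taken as a member where its only gene symbol was 1 of these 10. This gave 20 probe sets, 15 for the brakes and 5 for the GTPases, of 45037 probe sets on the array. Every one of the 20 entered the tests, whatever its level.

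RNA was extracted from striatum and measured with 1 Affymetrix array for each of 16 male mice, aged 7 to 8 weeks. The 4 groups of 4 mice were DBA/2J risperidone, DBA/2J control, A/J risperidone and A/J control. DBA/2J (DBA/2JRccHsd) and A/J (A/JOlaHsd) are inbred strains, and no engineered allele is named. Risperidone, a D2 dopamine receptor antagonist used against psychosis, was injected into the peritoneum at 1 mg/kg once a day for 3 days. The labels call the control mice untreated, while the protocol given for every sample names saline injections.

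As background, growth factor signals act through the TSC complex. Its subunits Tsc1 and Tbc1d7 support Tsc2, which turns off the GTPase Rheb, the direct activator of mTORC1 at the lysosome. Ddit4 (REDD1) and its paralogue Ddit4l (REDD2) are stress-induced proteins that release TSC from its inhibition, so that mTORC1 falls. Amino acids act through heterodimers of Rag GTPases, in which Rragd pairs with RagA or RagB and brings mTORC1 to the lysosome. The sestrins (Sesn1, Sesn2, Sesn3) hold back that amino acid arm, and Sesn2 binds leucine. In the title of the series the mTOR pathway is linked to the motor side effects of antipsychotics, and the question here was whether transcripts of these regulators differed with the drug or between the strains.

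Reference promoters are shown for 4 genes on which the results turn, namely Ddit4l, its paralogue Ddit4, Rragd, and Lamtor1, which anchors the Rag GTPases and is taken up with Rragd below. Each run is the 250 bases before the annotated start, 5′ to 3′, from RefSeq, whose sequence comes from C57BL/6J and neither of the strains studied. Capitals mark ACGTG on either strand, the core of hypoxia response elements, and CACGTG, the core of the CLEAR element bound by TFEB, which holds an ACGTG.
Ddit4l, GRCm38.p6, chr3:137623422-137623671, plus strand: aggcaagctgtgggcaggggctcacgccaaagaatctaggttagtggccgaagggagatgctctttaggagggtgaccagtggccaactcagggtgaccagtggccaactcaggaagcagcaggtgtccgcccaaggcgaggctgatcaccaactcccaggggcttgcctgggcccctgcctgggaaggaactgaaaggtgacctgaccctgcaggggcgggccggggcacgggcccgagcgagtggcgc
Ddit4, GRCm38.p6, chr10:59951771-59952020, minus strand: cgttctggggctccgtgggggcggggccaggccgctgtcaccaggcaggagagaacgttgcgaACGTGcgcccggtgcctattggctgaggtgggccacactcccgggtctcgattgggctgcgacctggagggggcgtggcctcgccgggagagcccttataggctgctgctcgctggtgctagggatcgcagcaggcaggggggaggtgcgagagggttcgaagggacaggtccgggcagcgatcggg
Rragd, GRCm38.p6, chr4:32982748-32982997, plus strand: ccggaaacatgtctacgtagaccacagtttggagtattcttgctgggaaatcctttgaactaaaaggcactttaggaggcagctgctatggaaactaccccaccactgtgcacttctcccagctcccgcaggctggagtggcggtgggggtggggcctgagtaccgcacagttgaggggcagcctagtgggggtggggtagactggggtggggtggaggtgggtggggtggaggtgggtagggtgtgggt
Lamtor1, GRCm38.p6, chr7:101905587-101905836, plus strand: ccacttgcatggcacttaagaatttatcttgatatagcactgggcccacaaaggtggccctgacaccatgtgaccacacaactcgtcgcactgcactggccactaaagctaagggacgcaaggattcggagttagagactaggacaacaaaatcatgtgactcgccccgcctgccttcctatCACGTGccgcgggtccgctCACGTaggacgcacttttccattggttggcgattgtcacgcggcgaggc
Of the 10 genes, 9 had an entry in the RefSeq promoter table. The CACGTG motif was found in the promoters of Rheb, Tbc1d7 and Lamtor1, against 6.02% of all 32851 promoters of the same length, and the ACGTG core in those 3 and in Ddit4, against 16.6%. Neither motif lay in the Rragd or Ddit4l windows. TGACGTCA (CREB), TGTTTAC (FOXO), TGANTCA (AP-1) and GCGTGGGCG (EGR1), each searched on both strands, were in none of the windows of the 9 genes or Lamtor1. They occur in 1.55%, 3.17%, 6.75% and 0.536% of all promoters.

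Some arrays stood apart from their labels or their group. Strain markers were probe sets, none a member, that differed by at least 1.5 log2 units between the control groups, and each array was placed on the scale between the control means. The share of DBA/2J signal at 46 to 49 such probe sets lay between 87.6% and 101.6% in DBA/2J risperidone mice and between 96.1% and 103.2% in DBA/2J control mice. In A/J risperidone mice it was 27.9%, 36.2%, 0.584% and 39.1% in replicates 1 to 4, against -2.3% to 0.993% in A/J control mice, so in the group labelled A/J risperidone 3 of 4 arrays lay between the strains at these markers. DBA/2J control replicate 4 correlated with the other arrays at 0.970 to 0.979, and its ribosomal protein genes averaged 10.04 on the log2 scale against 10.50 to 10.56 in the rest of its group. Of 7 measured markers of striatal projection neurons, Drd2 lay at 3.62 to 4.9 and below the median probe set level of 5.67 in all 16 arrays, while Drd1 (5.85 to 6.51), Penk (6.13 to 7.98), Tac1 and Ppp1r1b were above it in all. Slc17a7, a marker of cortical neurons, lay between 9.52 and 10.2, and Tcf7l2, a marker of thalamic neurons, between 5.81 and 8.98. Ttr, a marker of choroid plexus, had the widest range of these markers, 6 to 11.97. In bulk tissue, fewer cells of a type and less RNA per cell cannot be told apart. DBA/2J risperidone replicates 2, 3 and 4 carry the same description, but no pair of arrays shared more than 2.86% of its values.

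No probe set of the 10 genes passed the test for risperidone in either strain, and 1 passed between the strains, Rragd, which was lower in DBA/2J control mice. The member farthest from 0 with the drug was the brake Ddit4l, 1.69-fold lower in DBA/2J risperidone mice and short of the threshold. With limma and an adjusted p under 0.05, 0 of 20 probe sets were called for risperidone in DBA/2J, where 0.04% of all probe sets were called. In A/J it was 0 of 20, against 0%, over the mean of both strains 0 of 20, against 0.0266%, and for the difference in response 0 of 20, against 0%. Between the strains 0 of 20 were called in risperidone mice, against 0.782%, and 1 of 20 in control mice, against 3.87%. At an unadjusted p under 0.05 the member probe sets numbered 4 of 20 for risperidone in DBA/2J (10.7% of all probe sets), 4 in A/J (5.51%), 2 over both strains (6.9%) and 3 for the difference in response (9.19%). In the strain comparisons they numbered 0 in risperidone mice (9.43%) and 7 in control mice (17.7%).

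Groups did not overlap at 1 of 20 member probe sets for risperidone in DBA/2J (4.4% of all probe sets) and at 1 in A/J (4.42%). They did not overlap at 2 between the strains in risperidone mice (7.68%) and at 4 in control mice (9.33%). The 15 brake probe sets had a median risperidone difference of 0.09 in DBA/2J, with 10 of 15 above 0 (48.6% of all probe sets), and of -0.005 in A/J, against medians of -0.005 and 0 over all probe sets. The 5 GTPase probe sets had medians of 0.01 and -0.05. In control mice the median strain difference was -0.08 for the brakes, with 6 of 15 above 0 (53.2% of all probe sets), and -0.03 for the GTPases, against 0.01 for all probe sets.

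**Figure D1:**
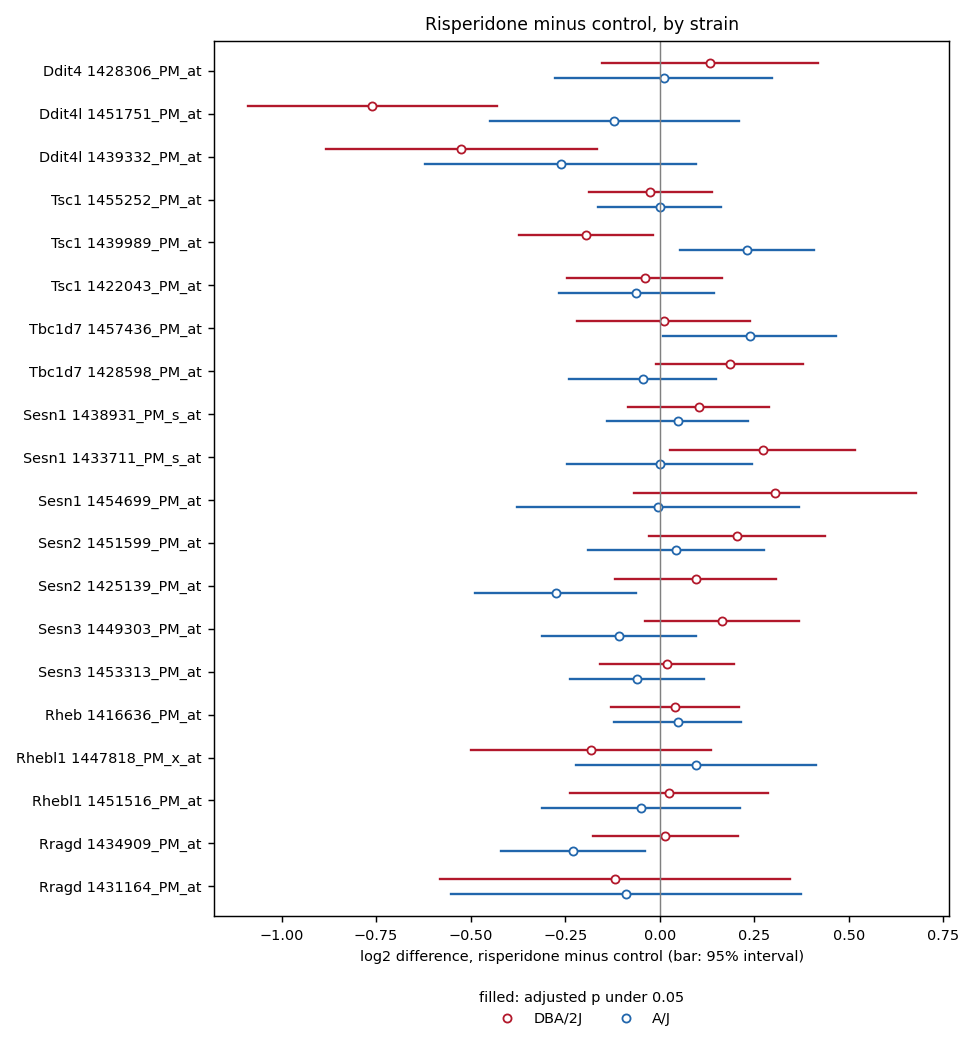
Log2 difference, risperidone minus control, for each member probe set (x axis, bars are 95% intervals), in DBA/2J above and A/J below on each row; filled points would mark an adjusted p under 0.05. No point is filled, and Ddit4l 1451751_PM_at in DBA/2J, at -0.76, lies farthest from 0.

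The Ddit4l probe set 1451751_PM_at had log2 levels of 5.58, 6.5, 5.97 and 6.19 in DBA/2J risperidone mice, against 7.03, 6.82, 6.82 and 6.61 in DBA/2J control mice. Every risperidone array lay below every control array. On the log2 scale they differed by -0.76 ± 0.16 (SE, 4 mice per group; 95% interval -1.09 to -0.43), a 1.69-fold lower level, and did not pass with limma after adjustment over all probe sets (adjusted p = 0.113). The second probe set, 1439332_PM_at, ran the same way with overlapping groups, at 5.38, 6.15, 5.74 and 5.79 in risperidone mice against 6.62, 6.44, 6.06 and 6.04 in control mice. Its difference was -0.52 ± 0.17 (adjusted p = 0.300). Deviations from the group means in the 2 Ddit4l probe sets correlated at 0.87 over the 16 arrays.

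In A/J the Ddit4l probe set 1451751_PM_at was at 6.2, 6.18, 5.99 and 6.26 in risperidone mice against 6.59, 6.37, 6.02 and 6.13 in control mice. These groups overlapped, and the difference was -0.12 ± 0.16 (95% interval -0.45 to 0.21, adjusted p = 0.994). The test of the strain difference in response gave -0.64 ± 0.22 (adjusted p = 0.435), so the strains were not shown to differ. Over 26 other settings this value lay between -0.79 and -0.33, and it was -0.33 when the share of DBA/2J signal entered the fit. Averaged over both strains, the differences were -0.44 ± 0.11 (adjusted p = 0.359) and -0.39 ± 0.12 (adjusted p = 0.513) for the 2 probe sets. In control mice Ddit4l was higher in DBA/2J than in A/J by 0.54 ± 0.16 at 1451751_PM_at, with no overlap of the groups (adjusted p = 0.0626), and by 0.43 ± 0.17 at 1439332_PM_at (adjusted p = 0.194). In risperidone mice the same comparisons gave -0.10 ± 0.16 and 0.16 ± 0.17. The risperidone comparison in DBA/2J and the strain comparison in control mice use the same 4 DBA/2J control arrays, the group in which Ddit4l was highest. The strain difference at 1451751_PM_at in control mice passed in 6 of 26 other settings tried, with adjusted p between 0.0236 and 0.451. The projection neuron markers averaged 5.96 to 6.29 in DBA/2J control against 6.20 to 6.79 in A/J control mice, 6 of 7 being lower and 2 called. The 26 settings included a fit with projection neuron, choroid plexus and thalamus marker levels as joint covariates. Over all 26 the strain difference in control mice lay between 0.37 and 0.65 at 1451751_PM_at and between 0.22 and 0.55 at 1439332_PM_at. The part of the projection neuron markers alone was not tested.

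Whether Ddit4l passed in DBA/2J depended on 1 array. Without DBA/2J risperidone replicate 2, the highest of its group, the difference at 1451751_PM_at was -0.91 and passed (adjusted p = 0.0252), while in every other setting tried it did not pass. In that fit 47 probe sets were called in all, against 18 in the fit reported. Without replicate 1, the lowest of its group, the Ddit4l difference was -0.60 (adjusted p = 0.319). Several marker lists ran opposite to Ddit4l in DBA/2J, with no marker called. The 7 projection neuron markers averaged 6.31 to 6.68 in risperidone mice against 5.96 to 6.29 in control mice, with 6 of 7 higher. The 7 choroid plexus markers averaged 4.72 to 6.17 in risperidone mice against 4.56 to 4.79 in control mice, with 6 of 7 higher. Replicate 1, the risperidone array with the lowest Ddit4l, had the 6.17, and the rest of its group reached 5.01. Of these 7 markers 1, Ttr, had a mean at or above the median probe set level. Oligodendrocyte markers were higher in 5 of 6 cases and blood markers in 4 of 4, with averages that overlapped between the groups, and their part in the Ddit4l difference was not tested. With projection neuron, choroid plexus and thalamus marker levels as covariates the Ddit4l difference was -0.78 ± 0.18 (adjusted p = 0.736).

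**Figure D2:**
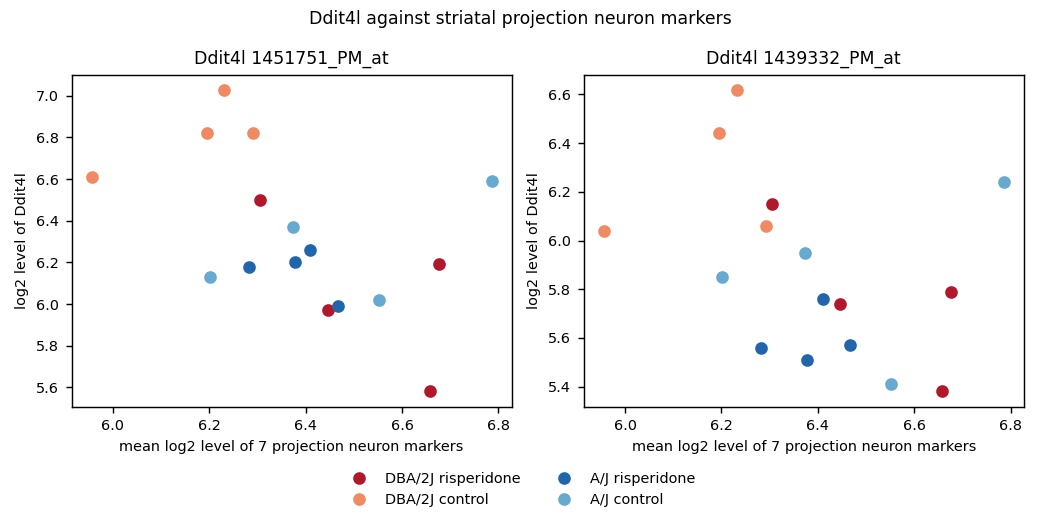
Log2 level of Ddit4l at its 2 probe sets (y axis) against the mean log2 level of 7 striatal projection neuron markers (x axis), 1 point per array, coloured by group. The DBA/2J control arrays lie at 6.61 to 7.03 in the left panel and at marker levels of 5.96 to 6.29, and the DBA/2J risperidone arrays lie below them at 5.58 to 6.5 and at marker levels of 6.31 to 6.68.

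Ddit4, which glucocorticoids and hypoxia are known to induce, was measured by 1 probe set, 1428306_PM_at. The log2 levels were 9, 8.74, 8.96 and 9.14 in DBA/2J risperidone mice against 8.6, 8.48, 9.07 and 9.16 in DBA/2J control mice. The control group alone spanned the whole range of the treated one. The difference was 0.13 ± 0.14 (95% interval -0.15 to 0.42, adjusted p = 0.744), and the interval includes a level up to 1.34-fold higher. In A/J the levels were 8.9, 9.04, 9.28 and 9 in risperidone mice against 8.97, 8.93, 9.2 and 9.08 in control mice, a difference of 0.01 ± 0.14 (adjusted p = 0.997). Between the strains Ddit4 differed by -0.10 ± 0.14 in risperidone mice and by -0.22 ± 0.14 in control mice, and neither passed.

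The TSC complex was represented by Tsc1, its scaffold subunit, and Tbc1d7, which stabilises the complex. The Tsc1 probe set with the highest level, 1455252_PM_at, averaged 8.44 ± 0.04 (SD, n = 4) in DBA/2J risperidone, 8.46 ± 0.12 in DBA/2J control, 8.45 ± 0.10 in A/J risperidone and 8.45 ± 0.05 in A/J control mice. The groups overlapped throughout, and the 95% intervals of both risperidone differences lay within -0.19 to 0.16. Another Tsc1 probe set, 1439989_PM_at, ran in opposite directions in the strains. It was at 6.06, 6.28, 6.2 and 6.38 in DBA/2J risperidone mice against 6.48, 6.34, 6.39 and 6.49 in DBA/2J control mice (-0.20 ± 0.08, adjusted p = 0.432), a difference of -0.09 with 3 regional marker levels as covariates. In A/J it was at 6.33, 6.37, 6.43 and 6.35 in risperidone mice against 5.95, 6.21, 6.2 and 6.2 in control mice, with no overlap (0.23 ± 0.08, adjusted p = 0.784).

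The difference between the strains in the response of 1439989_PM_at, -0.42 ± 0.12, had the smallest p of the members' interaction tests and did not pass (adjusted p = 0.365). In control mice this Tsc1 probe set was higher in DBA/2J than in A/J by 0.28 ± 0.08 with no overlap (adjusted p = 0.0684). Its deviations did not follow those of 1455252_PM_at (r = -0.37 over 16 arrays), so the Tsc1 probe sets disagree. The third Tsc1 probe set, 1422043_PM_at, had a mean of 5.60, below the median of all probe sets, with differences between -0.06 and 0.07 in every comparison tested. Tbc1d7 was split as well. Probe set 1457436_PM_at averaged 6.42 ± 0.09 in A/J risperidone against 6.18 ± 0.22 in A/J control mice (0.24 ± 0.11, adjusted p = 0.891), while 1428598_PM_at differed by -0.04 ± 0.09 there. In control mice 1457436_PM_at was higher in DBA/2J by 0.24 ± 0.11 (adjusted p = 0.251).

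Among the sestrins, Sesn1 is a p53 and FOXO target, Sesn2 is induced by ATF4, and Sesn3 is a FOXO target. Sesn1 had 3 probe sets, and all 3 were higher in DBA/2J risperidone mice than in DBA/2J control mice, without passing the test. At 1433711_PM_s_at the levels were 7.98, 8.01, 7.92 and 7.88 in risperidone mice against 7.9, 7.8, 7.79 and 7.21 in control mice. The low value belongs to DBA/2J control replicate 4, the array with low ribosomal protein levels. The difference was 0.27 ± 0.12 (adjusted p = 0.428) over all arrays and 0.12 ± 0.08 without that array. At 1454699_PM_at the same array read 5.69 against 6.74 to 6.82 in the other 3 controls, and the risperidone mice lay at 6.63 to 6.95. At 1438931_PM_s_at, the Sesn1 probe set with the highest level, the difference was 0.10 ± 0.09. In A/J the 3 Sesn1 differences lay between -0.005 and 0.05.

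Sesn2 was measured by 2 probe sets whose deviations did not run together (r = -0.14 over 16 arrays). At 1425139_PM_at the A/J risperidone arrays read 6, 6.31, 6.05 and 6.01 against 6.45, 6.15, 6.46 and 6.41 in A/J control mice. Replicate 2 of each group lay on the other side of its group, and the difference was -0.28 ± 0.10 (adjusted p = 0.790). At 1451599_PM_at it was 0.04 ± 0.11. In DBA/2J the differences were 0.10 ± 0.10 at 1425139_PM_at and 0.20 ± 0.11 at 1451599_PM_at, and neither passed. Between the strains in control mice 1425139_PM_at averaged 6.02 ± 0.16 (SD, n = 4) in DBA/2J against 6.37 ± 0.15 in A/J, a difference of -0.34 ± 0.10 (SE, adjusted p = 0.0690). This value passed without A/J control replicate 2 (-0.42, adjusted p = 0.0342) and without DBA/2J control replicate 4 (-0.40, adjusted p = 0.0354).

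Sesn3 was measured by 2 probe sets, of which 1449303_PM_at averaged 8.24 ± 0.11 (SD, n = 4) in DBA/2J risperidone against 8.08 ± 0.21 in DBA/2J control mice, and 8.18 ± 0.01 in A/J risperidone against 8.29 ± 0.11 in A/J control mice. The risperidone differences were 0.16 ± 0.10 and -0.11 ± 0.10 (SE, adjusted p = 0.543 and 0.987). Between the strains in control mice, DBA/2J minus A/J, Sesn3 gave a log2 difference of -0.21 ± 0.10 (adjusted p = 0.274), and -0.11 without DBA/2J control replicate 4, which read 7.78. At the second probe set, 1453313_PM_at, every DBA/2J control array (7.87 to 8.13) lay below every A/J control array (8.14 to 8.25), with a difference of -0.14 ± 0.08 (adjusted p = 0.386).

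**Figure D3:**
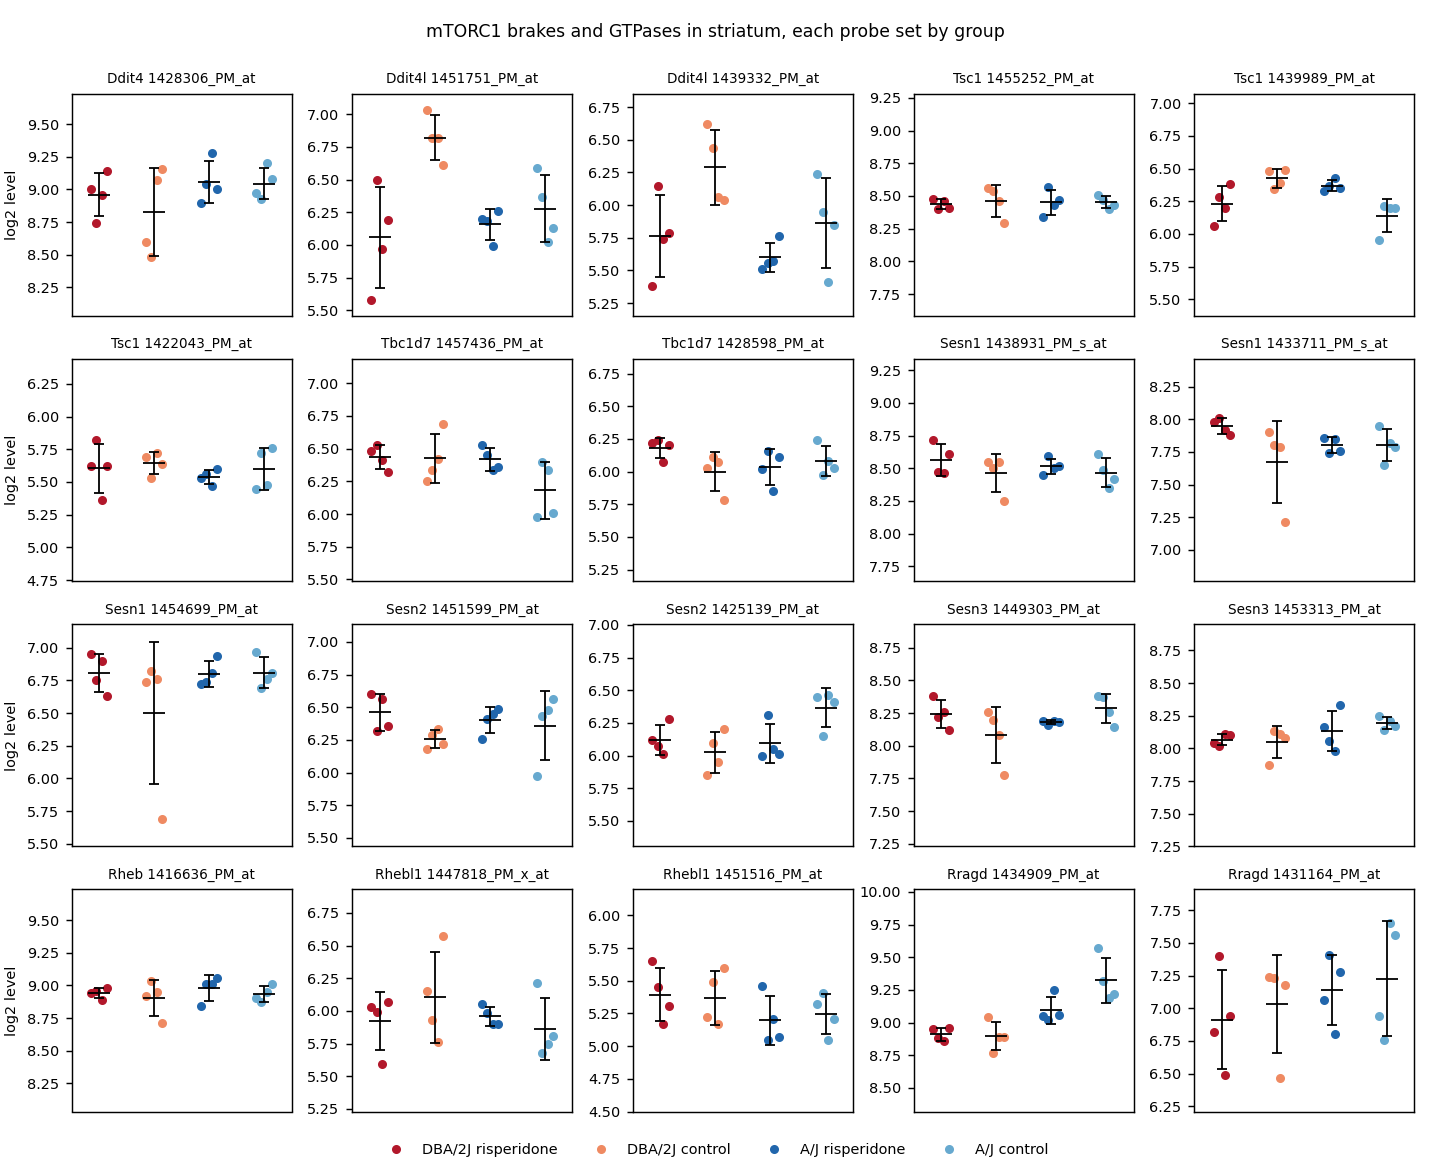
Log2 level of each of the 20 member probe sets (y axes, all spanning the same range) in the 4 groups, 1 point per array with the group mean and SD as bars. Ddit4l has its highest mean in DBA/2J control mice at both probe sets, Rragd 1434909_PM_at has its highest in A/J control mice at 9.19 to 9.57, and DBA/2J control replicate 4 is the low point at the Sesn1 probe sets.

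Of the GTPases, Rheb was measured by 1 probe set, 1416636_PM_at. It averaged 8.94 ± 0.04 (SD, n = 4) in DBA/2J risperidone against 8.90 ± 0.14 in DBA/2J control mice, and 8.98 ± 0.10 in A/J risperidone against 8.93 ± 0.06 in A/J control mice. The groups overlapped in every pair, and the 95% intervals of the risperidone differences, -0.13 to 0.21 in DBA/2J and -0.12 to 0.22 in A/J, have upper bounds of 1.16-fold in both strains. Between the strains the differences were -0.04 ± 0.08 in risperidone mice and -0.03 ± 0.08 in control mice. Rhebl1, a Rheb paralogue, had 1 probe set near the median level (1447818_PM_x_at, mean 5.96) and 1 below it (1451516_PM_at, mean 5.30). Its risperidone differences lay between -0.18 and 0.10, and its strain differences between -0.04 and 0.24. The suffix x of the first marks probes that can also bind other transcripts, so its values are less certain.

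The Rragd probe set 1434909_PM_at, the 1 called, was at 9.04, 8.77, 8.89 and 8.89 in DBA/2J control mice, against 9.57, 9.32, 9.19 and 9.22 in A/J control mice. The groups did not overlap, and the DBA/2J level was the lower, with a difference of -0.43 ± 0.09 (SE on the log2 scale, 4 mice per group; 95% interval -0.62 to -0.24), a 1.34-fold difference that passed with limma (adjusted p = 0.00985). In risperidone mice it was at 8.95, 8.88, 8.86 and 8.96 in DBA/2J against 9.05, 9.02, 9.25 and 9.06 in A/J. These groups did not overlap either, and the difference, -0.18 ± 0.09, did not pass (adjusted p = 0.559). The second Rragd probe set, 1431164_PM_at, spread from 6.47 to 7.65 over all arrays, with strain differences of -0.22 ± 0.22 in risperidone mice and -0.20 ± 0.22 in control mice. Deviations in the 2 Rragd probe sets correlated at -0.42 over 16 arrays.

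In A/J, Rragd 1434909_PM_at differed between risperidone and control mice by -0.23 ± 0.09 (adjusted p = 0.818), and in DBA/2J by 0.01 ± 0.09 (95% interval -0.18 to 0.21). Replicates 1, 2 and 4 of A/J risperidone, those between the strains at the strain markers, read 9.02 to 9.06, between the DBA/2J control mean of 8.90 and the A/J control mean of 9.32. Replicate 3, whose strain markers matched A/J, read 9.25. Without those 3 arrays the A/J difference was -0.08 ± 0.15, a fit in which the single A/J risperidone array left is assumed to vary like the other groups, and -0.10 ± 0.13 when the share of DBA/2J signal entered the fit. Without A/J control replicate 1, the highest of its group at 9.57, it was -0.15.

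The Rragd strain call in control mice was lost with the 8 control arrays alone, at the same difference (adjusted p = 0.0762), and with 3 regional marker levels as covariates (-0.31 ± 0.11, adjusted p = 0.261). It passed in each fit that left out 1 array (adjusted p between 0.00909 and 0.0396). Markers of several cell types or regions were mostly lower in the same comparison, and those of others were not. Higher in DBA/2J control mice were 3 of 5 astrocyte markers (1 called), and 3 of 5 endothelium and 3 of 4 blood markers (0 called). Of 4 cortex markers 2 were higher and 2 lower. The 6 measured oligodendrocyte markers averaged 8.09 to 8.53 in DBA/2J control against 8.76 to 9.41 in A/J control mice, with 6 of 6 lower in DBA/2J and 2 called. The 5 microglia markers averaged 6.33 to 6.38 in DBA/2J control against 6.73 to 6.86 in A/J control mice, with 5 of 5 lower and 2 called. Of the projection neuron markers 6 of 7 were lower and 2 called, with the averages given for Ddit4l. The 6 thalamus markers averaged 5.84 to 6.13 in DBA/2J control against 5.89 to 7.44 in A/J control mice, with 6 of 6 lower and none called. The 7 choroid plexus markers averaged 4.56 to 4.79 in DBA/2J control against 4.70 to 5.85 in A/J control mice, with 5 of 7 lower and none called. The oligodendrocyte and microglia markers all had a mean at or above the median probe set level, as did 6 of 7 projection neuron, 4 of 6 thalamus and 1 of 7 choroid plexus markers. The part of the oligodendrocyte and microglia markers in the Rragd difference was not tested.

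**Figure D4:**
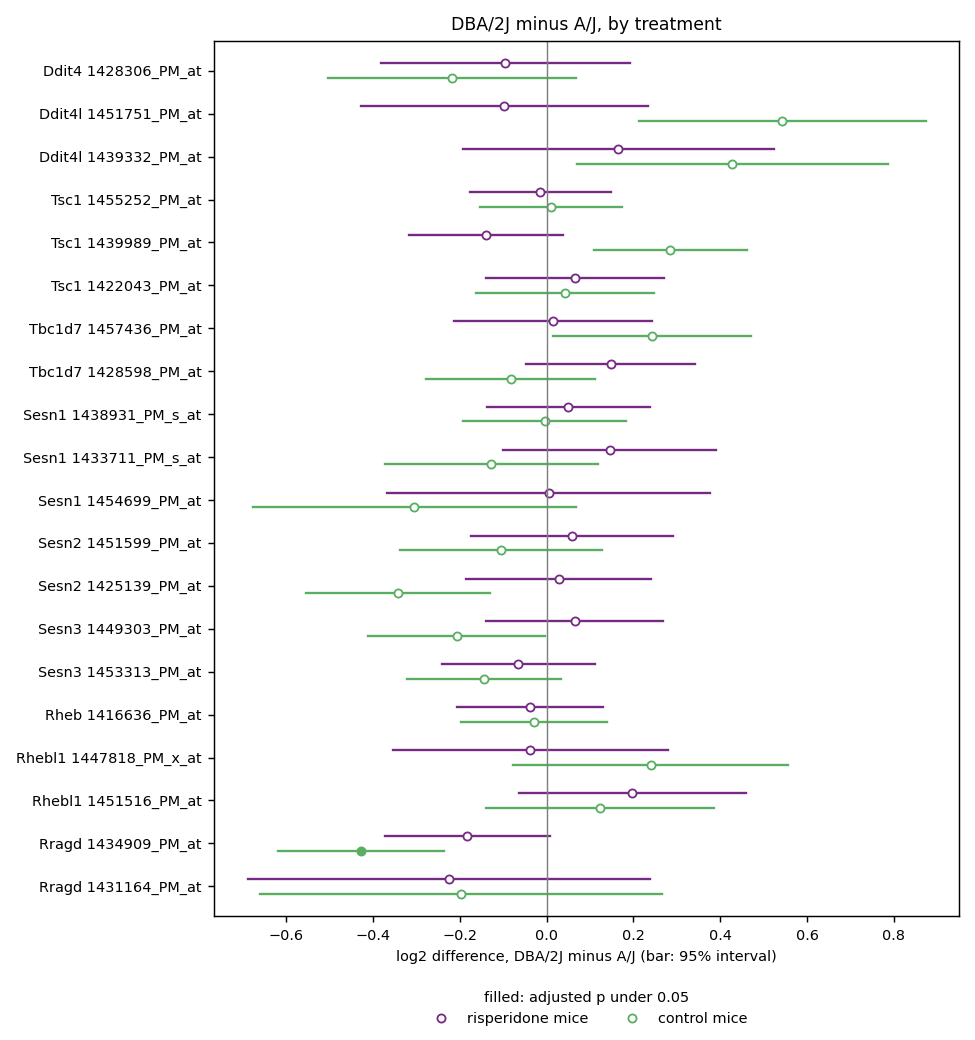
Log2 difference, DBA/2J minus A/J, for each member probe set (x axis, bars are 95% intervals), in risperidone mice above and control mice below on each row, with filled points where the adjusted p was under 0.05. Rragd 1434909_PM_at in control mice, at -0.43, is the 1 filled point.

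The wider set of genes upstream of mTORC1 was described by a list of 48 entries, of which 35 had a probe set naming them alone, with 68 probe sets in all. Tsc2, Rraga, Rragb and Nprl3 were among the entries without one and were not analysed here. No probe set of the list passed for risperidone in either strain (limma, 0 of 68 in each), with 5 of 68 in DBA/2J (10.7% of all probe sets) and 1 of 68 in A/J (5.51%) at an unadjusted p under 0.05. The list medians were 0.04 and -0.0025. The smallest p in DBA/2J belonged to Prkag2, a regulatory subunit of the energy sensor AMPK (0.30 ± 0.10, adjusted p = 0.311), and in A/J to Lamtor1 (-0.23 ± 0.07, adjusted p = 0.616).

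Between the strains in control mice, 5 of these 68 probe sets were called (3.87% of all probe sets), 4 higher and 1 lower in DBA/2J, with a list median of 0.02. Lamtor1, the subunit that ties the Ragulator complex and so the Rag GTPases to the lysosome, was lower in DBA/2J at 1448718_PM_at. It read 7, 7, 6.98 and 7.02 in DBA/2J control mice against 7.67, 7.67, 7.57 and 7.5 in A/J control mice, a difference of -0.60 ± 0.07 (adjusted p = 4.2e-05). The other Lamtor1 probe set, 1417463_PM_a_at, differed by 0.04 ± 0.07 in the same comparison, so the call rests on 1 of 2 probe sets. Castor2, a paralogue of the arginine sensor Castor1, was higher in DBA/2J at 1443925_PM_at. It read 7.42, 7.86, 7.69 and 7.69 in DBA/2J control against 6.52, 6.54, 6.5 and 6.97 in A/J control mice (1.03 ± 0.17, adjusted p = 0.000883). Its 3 other probe sets differed by -0.04 to 0.20.

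The remaining calls, each at 1 probe set and all higher in DBA/2J control mice, were Slc38a9, a lysosomal arginine transporter that signals to the Rag GTPases (0.41 ± 0.10, adjusted p = 0.0210), Depdc5, a subunit of GATOR1, which turns the Rag GTPases off (0.41 ± 0.11, adjusted p = 0.0371), and Prkab1, an AMPK subunit (0.35 ± 0.09, adjusted p = 0.0399). At the other Slc38a9 probe sets the DBA/2J control means were 4.22, 5.35 and 5.51, against A/J control means of 4.15, 5.48 and 5.52. At the other Depdc5 probe sets they were 6.34, 6.345, 5.29 and 6.745, against 6.36, 6.11, 5.18 and 6.73. None of these other probe sets was called. In risperidone mice Castor2 was again called, higher in DBA/2J by 0.82 ± 0.17 (adjusted p = 0.0183), and Lamtor1 was not (-0.24 ± 0.07, adjusted p = 0.177). In A/J risperidone mice Lamtor1 was at 7.43, 7.4, 7.25 and 7.4, with the lowest value in replicate 3, whose strain markers match A/J, whereas Rragd was highest in that replicate.

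**Figure D5:**
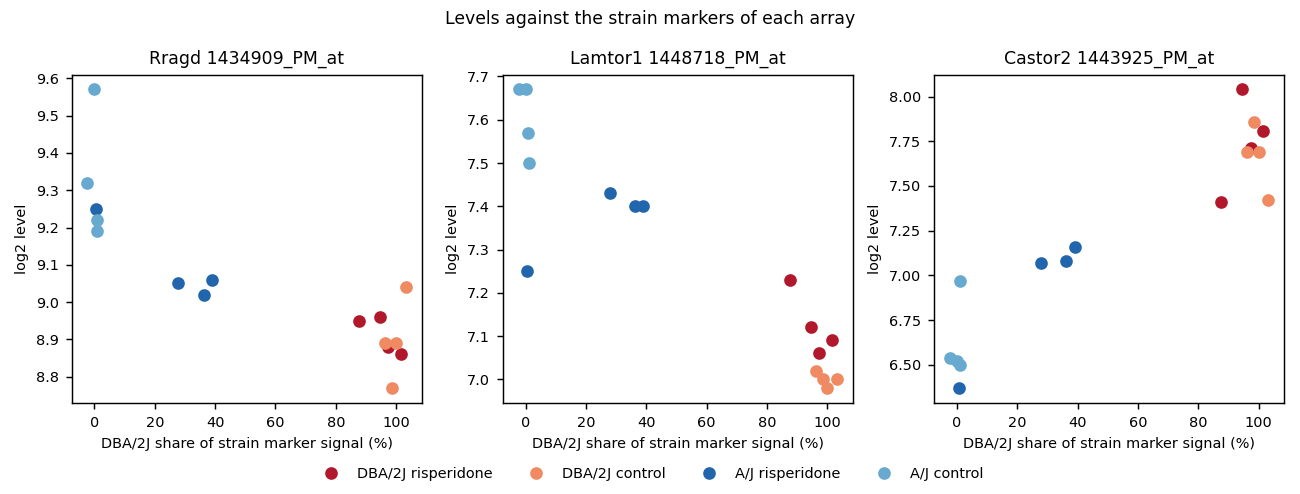
Log2 levels of Rragd 1434909_PM_at, Lamtor1 1448718_PM_at and Castor2 1443925_PM_at (y axes) against the share of DBA/2J signal at strain marker probe sets in percent (x axis), 1 point per array, coloured by group. Each was picked as the probe set of its gene with the smallest p between the strains in control mice. The 3 A/J risperidone arrays at 27.9% to 39.1% lie between the 2 control group means at each probe set shown. The fourth, at 0.584%, lies within the A/J control range for Rragd and below it for Lamtor1 and Castor2. At the other probe sets of these genes, not shown, the 3 arrays did not all lie between the control means.

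The genes whose levels ran most like the members' were found among 9946 genes at or above the median level, by Pearson correlation of deviations from the group means over the 16 arrays. For Ddit4l these were Pou3f2 (0.90), Kctd1 (0.89) and Mtcl1 (0.87). For Ddit4 they were 1700088E04Rik (0.82), Nrip2 (0.82) and Timp3 (0.81), and for Rheb they were Tmed8 (0.89), Exosc9 (0.88) and Usp5 (0.88). For Rragd they were Gpr180 (0.90), Efl1 (0.90) and Trim41 (0.88). These are descriptions of the highest values among many, and the arrays differ in the markers and ribosomal protein levels given above.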

How the data were processed

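Striatal RNA of 16 mice was hybridised to Affymetrix PM expression arrays, 4 mice in each of 4 groups. The values used are log2 levels that the authors computed with RMA and deposited, per the submitters' processing notes, which give no version. Array medians lay between 5.66 and 5.71, and the number of arrays limits the precision. After leaving out 104 control probe sets of 45141, limma 3.58.1 in R 4.3.3 (lmFit and eBayes, 4 group means over all 16 arrays) tested 45037 probe sets in 6 comparisons, with Benjamini-Hochberg adjustment over all of them and a threshold of 0.05. Symbols came from GEO's platform annotation, in which 28898 probe sets name 1 gene, 551 several and 15588 none. Differences are log2 with their SE. For the text, single differences with an unadjusted p under 0.05 were followed through the alternatives, and the most similar genes were the first 3 by correlation. The fit was tested on simulated data with independent noise, no deviant array and added shifts larger than any member difference. That test therefore says nothing on shifts as small as those of the members. The p-values set each difference against the spread between mice within groups, pooled over the 4 groups and moderated across probe sets. Nothing says that the mice came from separate litters, so a spread between litters may not be included. The members and gene lists were chosen with earlier results of these data known.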

Additional observations from a re-analysis of the deposited data

Results flagged for a closer look

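In 8 of the 80 sets of 4 values (20 probe sets in 4 groups), the array at one end lay far from its group by Dixon's criterion, which chance alone meets in about 1 in 20 groups. DBA/2J control replicate 4 was low at all 3 Sesn1 probe sets, at 8.25 against 8.5 to 8.55 (1438931_PM_s_at), 7.21 against 7.79 to 7.9 (1433711_PM_s_at) and 5.69 against 6.74 to 6.82 (1454699_PM_at). This is the array with the low ribosomal protein levels. At Sesn2 1425139_PM_at, A/J risperidone replicate 2 was high at 6.31 against 6 to 6.05, and A/J control replicate 2 was low at 6.15 against 6.41 to 6.46. A/J control replicate 1 was low at Tsc1 1439989_PM_at, at 5.95 against 6.2 to 6.21. DBA/2J risperidone replicate 3 was low at Rhebl1 1447818_PM_x_at, at 5.59 against 5.99 to 6.07. DBA/2J control replicate 3 was low at Rragd 1431164_PM_at, at 6.47 against 7.18 to 7.24.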

How the results depend on the processing

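The 20 named differences were those with an unadjusted p under 0.05 in the fit reported, so a change of sign was unlikely from the outset. Of their 528 values under 27 alternative settings, none changed sign, 12 came to pass the threshold and 2 no longer did. The 2 were Rragd 1434909_PM_at between the strains in control mice, with the arrays of the 2 groups alone and with regional marker covariates. The 12 were 6 at Ddit4l 1451751_PM_at, 4 at Sesn2 1425139_PM_at and 1 at Tsc1 1439989_PM_at between the strains in control mice, and 1 at Ddit4l 1451751_PM_at for risperidone in DBA/2J. The number of members called between the strains in control mice was 1 of 20 in the fit reported, where 3.87% of all probe sets were called. It was 4 when probe sets below the median level were left out, where fewer tests share the adjustment. It was 2 with a trended and robust prior, 3 with array weights, and 0 with the arrays of the 2 groups alone or with regional marker levels as covariates, and the cause of these changes was not tested. The number called over all probe sets moved with the setting too. For a different comparison, risperidone in DBA/2J, it was 37, 35, 10, 0 and 0 in these settings, in the order given, against 18 in the fit reported. These counts are not a background for the strain comparison in control mice. Its share over all probe sets is given for the fit reported only (3.87%). The member counts under other settings therefore stand without a share and are not read as a result about the members. Leaving out 1 array at a time gave 1 to 2 members called between the strains in control mice and 0 to 1 for risperidone in DBA/2J. In the other 4 comparisons 0 members were called in every setting tried. The covariates and the removal of arrays in doubt were chosen after seeing the data, and the strain marker share was not used as a covariate between strains. Replicate numbers are shared by the groups, but deviations of same-numbered arrays correlated at only -0.055 to 0.170, with 1 to 2 of 4 pairs over 0.1 and 1 to 3 of 4 arrays closest to their own number. With the replicate number as a block, 1 member was called between the strains in control mice (Rragd, adjusted p = 0.0128) and 0 in the other comparisons, as without it, and Ddit4l in DBA/2J had an adjusted p of 0.117.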

Other observations

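Genes that share regulators with the brakes were also measured. Among glucocorticoid-responsive genes, 21 of 29 probe sets were higher in DBA/2J risperidone than in DBA/2J control mice (48.6% of all probe sets). Their median was 0.07 against -0.005 over all probe sets. In this comparison 1 of the 29 was called higher and 1 lower, where 0.04% of all probe sets were called. Fkbp5, a chaperone that dampens the glucocorticoid receptor, was called higher at 1 of its 3 probe sets (0.81, adjusted p = 0.0367), and Dusp1, a phosphatase of MAP kinases, was called lower (-0.49, adjusted p = 0.0367). In A/J 20 of 29 were higher, with a median of 0.06 against 0 over all probe sets, and 0 were called (0% of all probe sets). Of 30 probe sets of ATF4 target genes, 0 were called for risperidone in either strain (0.04% of all probe sets in DBA/2J and 0% in A/J). Between the strains in control mice 3 of the 30 were called lower in DBA/2J and 0 higher, where 3.87% of all probe sets were called. Slc7a11, the cystine transporter, was lower in DBA/2J at 2 probe sets (-0.59 and -0.78), as was Atf3 (-0.39, adjusted p = 0.0484). Of 20 probe sets of p53 target genes, 1 was called with risperidone over both strains (0.0266% of all probe sets). It was 1 of the 2 probe sets of Btg2, an antiproliferative early gene, and was lower (-0.46, adjusted p = 0.0252).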
